A study of Mus musculus and Bos taurus with 6 samples.

Results

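miR-142, miR-150, miR-155 and miR-223 are miRNA of white blood cells, and their reads were followed in small RNA libraries from lactating mammary gland. They were taken as every line with a mouse (mmu-) or bovine (bta-) prefix and 1 of these 4 names, whatever its arm. This gave 8 of the 1750 lines of the mouse list, which also served for AGO2, and 5 of the 1539 lines of the bovine list. The bovine lines bta-miR-150, bta-miR-155 and bta-miR-223 carry no arm in their names and were placed by the arm given in the files.

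There were 3 kinds of library, with 2 of each. The mouse libraries held total RNA from whole glands of FVB/N mice at day 12 of lactation. The AGO2 libraries held the RNA that came down with Argonaute 2 from such glands, using a monoclonal antibody against it. AGO2 is the protein that carries a miRNA to its targets. The bovine libraries held total RNA from biopsies of Holstein cows in mid-lactation on a low forage diet (forage to concentrate 46:54), and each was a pool of 2 cows. The lymph node of the mouse gland was taken out at sampling. Mouse and AGO2 RNA were isolated with one kit and bovine RNA with another. Per the study, the mice were primiparous and the cows multiparous. Species, parity, kit, pooling, removal of the lymph node and biopsy against whole gland changed together and cannot be told apart. Which mouse or gland is behind each AGO2 library is not given in the sources used here.

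A miRNA is cut from a hairpin precursor, whose 5′ and 3′ sides give the 5p and 3p arms. The arm kept by an Argonaute protein finds its targets mainly through its seed, taken here as bases 2 to 8. miR-142 is made across blood cell lineages, miR-150 is abundant in mature lymphocytes, miR-155 rises when lymphocytes and macrophages are activated, and miR-223 is abundant in neutrophils and other myeloid cells. In a whole gland, fewer cells of a type and less RNA per cell cannot be told apart.

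The mature sequences of miR-142, miR-155 and miR-223 are shown, with the seed in capitals, because mouse and bovine reads were counted on lines that can differ in sequence. The miR-150-5p lines are not printed, because the mouse line matched no entry of the RefSeq table used. They also differ, with 22 bases in mouse and 23 in bovine.
mmu-miR-142-5p: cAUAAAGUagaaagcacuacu
bta-miR-142-5p: cAUAAAGUagaaagcacuac
mmu-miR-142-3p: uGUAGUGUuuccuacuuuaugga
bta-miR-142-3p: aGUGUUUCcuacuuuauggaug
mmu-miR-155-5p: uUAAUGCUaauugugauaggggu
bta-miR-155: uUAAUGCUaaucgugauaggggu
mmu-miR-223-3p: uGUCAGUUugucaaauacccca
bta-miR-223: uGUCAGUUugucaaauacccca

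The miR-223-3p lines were identical in both species. The miR-155-5p lines differed at 1 base, U12C from mouse to bovine, counted from 1 at the 5′ end and outside the seed. The miR-142-5p lines differed only in a last base that the bovine line lacks. The bovine miR-142-3p line began 3 bases later than the mouse line, so that its 20 shared bases carried another seed. Both lines are found in the mouse Mir142 hairpin of RefSeq (GRCm38.p6, chr11:87756864-87756927, plus strand), which is printed for each line with the bases of that line in capitals.
mmu-miR-142-3p in Mir142: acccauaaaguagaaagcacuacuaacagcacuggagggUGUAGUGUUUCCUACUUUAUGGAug
bta-miR-142-3p in Mir142: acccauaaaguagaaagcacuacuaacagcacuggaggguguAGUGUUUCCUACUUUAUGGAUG
The mouse line covered bases 40 to 62 of the 64 bases and the bovine line bases 43 to 64. Whether bovine reads that begin at the mouse start were counted on the bovine line is not given in the sources used here. This limits every comparison between the species of miR-142-3p and of sums, shares or ratios that include it. No other line of either list shared the bases 2 to 8 of a line named here.

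In the GENCODE annotation of GRCm38, Mir142 lies in an intron of the long noncoding RNA Mir142hg, with Mir142b annotated on the opposite strand. Mir155 (chr16:84714140-84714204, plus strand) lies in an exon of Mir155hg, the noncoding transcript it is cut from. Mir223 (chrX:96242817-96242926, plus strand) lies in an exon of F630028O10Rik, which is typed as antisense but runs on the same strand as Mir223. Mir150 (chr7:45121757-45121821, plus strand) overlaps no other annotated gene.

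The deposited counts summed to between 8391916 and 9299807 in the mouse libraries, 3909166 and 5041406 in the AGO2 libraries, and 9402483 and 10613807 in the bovine libraries. A count of 0 allows up to 3 counts, which is 0.323 and 0.357 RPM (the count scaled to a common library total) in mouse, 0.767 and 0.595 RPM in AGO2 and 0.319 and 0.283 RPM in bovine. These limits and the intervals below cover counting error only. For miRNA at or above 100 RPM in either library of a pair, the log2 ratio of the second over the first library had an SD of 0.93 in mouse (171 miRNA), 0.88 in AGO2 (167 miRNA) and 0.30 in bovine (149 miRNA), so the bovine pair lay closer together than the others.

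The leukocyte miRNA were a small part of each miRNome. All their lines together took 0.126% of the counts in mouse sample 1 (95% Wilson interval 0.124% to 0.129%) and 0.212% in mouse sample 2 (0.209% to 0.216%). They took 0.235% and 0.297% in the AGO2 samples, and 0.255% and 0.328% in the bovine samples. Both AGO2 and both bovine samples lay above both mouse samples, while the group means were 0.169% ± 0.0608 (SD, n = 2) in mouse, 0.266% ± 0.0439 in AGO2 and 0.292% ± 0.0518 in bovine. The AGO2 and bovine ranges overlapped.

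What made up these counts differed between the kinds of library. With both arms added, miR-142 gave 60.73% and 72.01% of the leukocyte counts in mouse, 52.01% and 62.38% in AGO2, and 35.86% and 29.01% in bovine. miR-150 gave 19.9% and 12.3% in mouse, 30.7% and 23.3% in AGO2, and 52.8% and 61.1% in bovine. Hence, as counted, miR-142 led in all 4 libraries of mouse origin and miR-150 led in both bovine libraries. The bovine miR-142 share includes the 3p line with its later start, whose part in this order was not tested. miR-155 gave 2.41% and 2.17% in mouse, 0.631% and 0.320% in AGO2 and 7.29% and 7.17% in bovine. The myeloid miR-223 gave 16.96% and 13.50% in mouse, 16.66% and 13.98% in AGO2, and 4.06% and 2.72% in bovine.

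**Figure D1:**
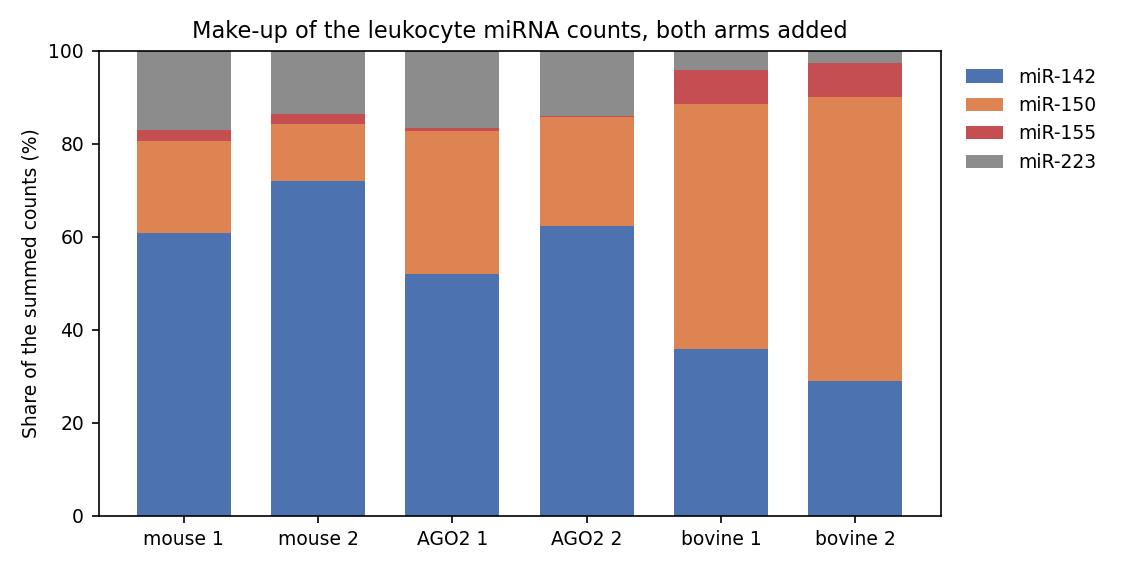
Share of the summed counts of the leukocyte miRNA (%, both arms added) taken by miR-142, miR-150, miR-155 and miR-223 in each of the 6 libraries. miR-142 is the largest block in the mouse and AGO2 libraries (52.01% to 72.01%) and miR-150 in the bovine libraries (52.8% and 61.1%).

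The levels of the 5 abundant lines were as follows. mmu-miR-142-3p had 399 and 986 RPM in mouse and 470 and 640 RPM in AGO2, and bta-miR-142-3p had 265 and 305 RPM in bovine. Both AGO2 values lay between the mouse values, and both bovine values lay below them. mmu-miR-142-5p had 370 and 544 RPM in mouse and 753 and 1215 RPM in AGO2, and bta-miR-142-5p had 651 and 647 RPM. The mouse values were the lowest of this arm, and the bovine values lay between mouse and AGO2.

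mmu-miR-150-5p had 250 and 260 RPM in mouse and 722 and 693 RPM in AGO2, and bta-miR-150 had 1347 and 2007 RPM. The 3 kinds of library did not overlap, with mouse lowest and bovine highest. mmu-miR-155-5p had 30.5 and 46.1 RPM in mouse and 14.8 and 8.33 RPM in AGO2, and bta-miR-155 had 186 and 236 RPM. The AGO2 values rested on 58 and 42 counts and were the lowest. mmu-miR-223-3p had 214 and 286 RPM in mouse and 392 and 415 RPM in AGO2, and bta-miR-223 had 104 and 89.2 RPM. For this myeloid miRNA the bovine values were the lowest and the AGO2 values the highest, without overlap.

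**Figure D2:**
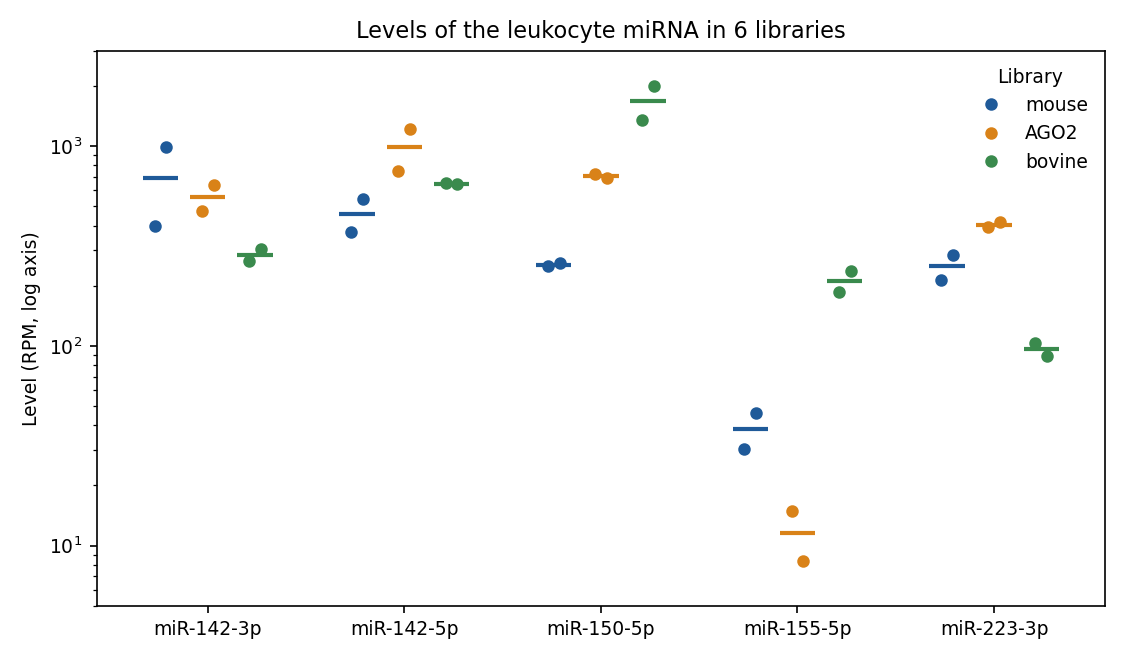
Levels of the 5 abundant leukocyte miRNA in RPM on a log axis, with 1 point per library and a bar at the mean of each kind of library. Only miR-142-3p has AGO2 points (470 and 640 RPM) inside the range of the mouse points (399 and 986 RPM).

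Within bovine the order was the same in both libraries, from miR-150-5p through miR-142-5p, miR-142-3p and miR-155-5p to miR-223-3p, and no neighbours overlapped. Within AGO2 the order was miR-142-5p, miR-150-5p, miR-142-3p, miR-223-3p and miR-155-5p in both libraries, although miR-142-5p in AGO2 sample 1 (753 RPM) was close to miR-150-5p (722 RPM). Within mouse both arms of miR-142 came first and overlapped, and miR-150-5p and miR-223-3p changed places between the libraries.

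The remaining lines were near the limit of detection. mmu-miR-150-3p had 14 and 12 counts in mouse and 0 in both AGO2 samples, and mmu-miR-223-5p had 6 and 5 counts in mouse and 0 and 4 in AGO2. mmu-miR-155-3p had 0 counts in both mouse samples and 0 and 6 in AGO2. In mouse, miR-150-3p made up 0.598% and 0.546% of the reads of both arms (95% Wilson intervals 0.357% to 1.00% and 0.313% to 0.953%), whereas the 0 counts in AGO2 allow a share of up to 0.106% and 0.0859%. These limits lie below both mouse intervals. For miR-155-3p the 0 counts in mouse allow up to 1.06% and 0.775% of the reads of both arms, and in AGO2 sample 1 up to 5.17%, while AGO2 sample 2 had 12.5% (5.86% to 24.7%) from its 6 counts. miR-223-5p made up 0.301% (0.138% to 0.655%) and 0.208% (0.0888% to 0.485%) in mouse and 0.191% (0.0743% to 0.490%) in AGO2 sample 2. The 0 counts of AGO2 sample 1 allow up to 0.196%, which lies inside both mouse intervals, so that no difference was detectable at this depth.

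The AGO2 comparison asked which miRNA of the gland are more or less present in the complex that acts on targets. None of the leukocyte miRNA passed the test. For 4 of the 5 both AGO2 values lay outside the range of the mouse samples. How often this held over all tested miRNA was not computed, so no shift can be read from it. The 5 abundant lines were tested among 299 miRNA that passed the study's filter on the highest count over the 4 libraries, using the edgeR quasi-likelihood test with Benjamini-Hochberg adjustment. Of all tested miRNA, 15.4% were called higher in AGO2 and 12.4% lower at an adjusted p of 0.05. Of the leukocyte miRNA, 0 of 5 were called, 1 had an unadjusted p below 0.05, and DESeq2 called 2, both higher in AGO2. DESeq2 called more miRNA in general, 23.1% of all tested as higher and 16.1% as lower.

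The smallest p was that of mmu-miR-150-5p, which was 3.08-fold higher in AGO2, a log2 fold change of 1.62 (SE 0.63, edgeR adjusted p = 0.0593, unadjusted 0.0177). Its adjusted p was 0.0027 with DESeq2 and 0.0392 with the size factors of DESeq2 in edgeR, a setting in which 19.1% of all tested miRNA were called higher and 11.7% lower. mmu-miR-142-5p was 2.40-fold higher, a log2 fold change of 1.26 (SE 0.63, edgeR adjusted p = 0.125, DESeq2 adjusted p = 0.0364). For both miRNA the side of the threshold thus depended on the tool. The study's own DESeq2 comparison of these libraries listed miR-150-5p as significantly enriched in AGO2, and none of the other leukocyte miRNA. Over the edgeR alternatives and DESeq2 the adjusted p ran from 0.0027 to 0.251 for miR-150-5p and from 0.0355 to 0.514 for miR-142-5p.

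mmu-miR-223-3p had a log2 fold change of 0.84 (SE 0.63, edgeR adjusted p = 0.304) and mmu-miR-155-5p one of -1.60, a 3.03-fold lower level (SE 1.14, edgeR adjusted p = 0.283), the only negative one outside the mouse range. The latter passed the filter only through its mouse counts (284 and 387, against 58 and 42 in AGO2). mmu-miR-142-3p had a log2 fold change of -0.18 (SE 0.65, edgeR adjusted p = 0.855), which became 0.63 without mouse sample 2 and 0.40 without AGO2 sample 1, so that its direction was not fixed. The median log2 fold change was 0.84 over the 5 leukocyte miRNA and -0.12 over all 299. Library totals alone moved the median over all miRNA to -0.27 and the DESeq2 size factors moved it to -0.01, and no leukocyte miRNA changed direction under either.

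**Figure D3:**
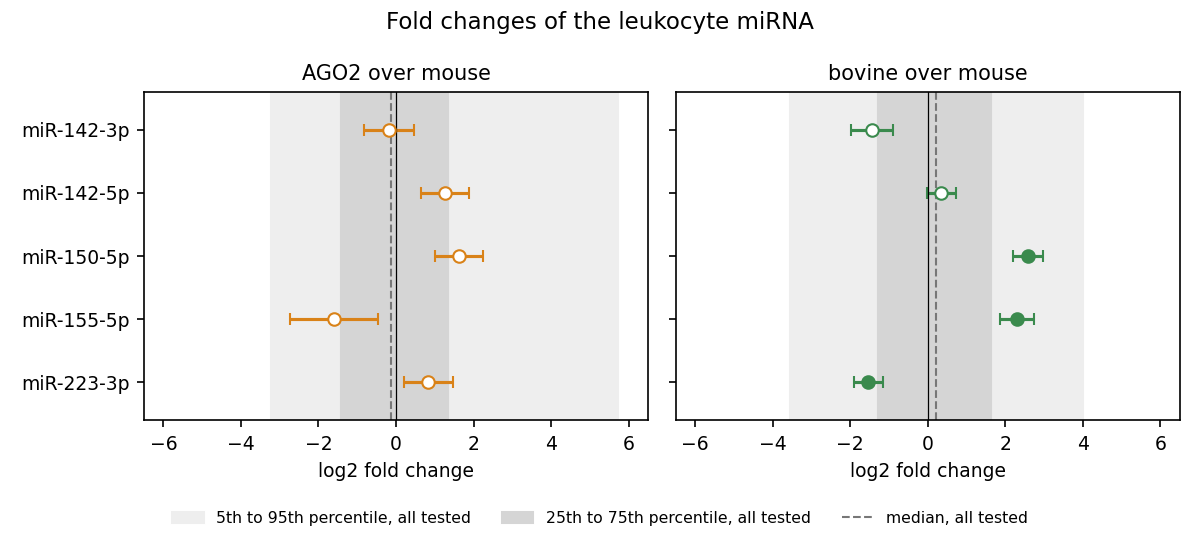
Log2 fold changes of the 5 leukocyte miRNA in AGO2 over mouse (left) and bovine over mouse (right), with bars for the standard error, filled points for an edgeR adjusted p below 0.05, grey bands for the 5th to 95th and 25th to 75th percentiles of all tested miRNA and a dashed line at their median. The 5 open points at left are miRNA that were not called, and the 3 filled points at right are miR-150-5p (2.58), miR-155-5p (2.31) and miR-223-3p (-1.53).

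The species comparison asked how far the miRNomes of the lactating gland are alike. miR-150-5p and miR-155-5p were higher in bovine, miR-223-3p was lower, and neither arm of miR-142 was called. The comparison used the 139 miRNA at or above 100 RPM in any library among 229 matched by name and arm, and it shares its mouse libraries with the AGO2 comparison. By the edgeR quasi-likelihood test with Benjamini-Hochberg adjustment, 29.5% of the tested miRNA were called higher in bovine and 25.9% lower. Among the 5 leukocyte miRNA, 2 were called higher and 1 lower, which is near the 55.4% called in either direction over all 139. Ordered by p among the 139, miR-150-5p was at place 32, miR-155-5p at 43 and miR-223-3p at 69. These calls are thus not particular to the leukocyte miRNA.

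miR-150-5p was 5.98-fold higher in bovine, a log2 fold change of 2.58 (SE 0.38, edgeR adjusted p = 0.00297). It was called under every alternative that was run. miR-155-5p was 4.96-fold higher, a log2 fold change of 2.31 (SE 0.44, edgeR adjusted p = 0.00747), and was no longer called without bovine sample 2 (log2 fold change 1.90). It reached the 100 RPM of the filter only in bovine (186 and 236 RPM, against 30.5 and 46.1 RPM in mouse). Its call is therefore not free of the filter. With no filter it was also called (log2 fold change 1.82, edgeR adjusted p = 0.0119).

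miR-223-3p was 2.89-fold lower in bovine, a log2 fold change of -1.53 (SE 0.38, edgeR adjusted p = 0.0163). It was not called without bovine sample 1 (adjusted p = 0.191) or without bovine sample 2 (adjusted p = 0.174), with log2 fold changes of -1.60 and -1.65. In both fits the lone bovine sample is assumed to vary like the mouse pair, which is the more spread of the 2 groups.

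miR-142-3p had a log2 fold change of -1.44 (SE 0.54, edgeR adjusted p = 0.0648, unadjusted 0.0387) and was called lower in bovine by DESeq2 (-1.64, adjusted p = 0.00302), which called 30.9% of all tested miRNA in each direction. It was also called with no filter (edgeR adjusted p = 0.0178) and with the pairs of the study's supplementary list (edgeR adjusted p = 0.0310). The fold by which it was lower in bovine was 2.72, and became 4.20 without mouse sample 1 and 1.57 without mouse sample 2. The bovine line with its later start applies to these values. miR-142-5p had a log2 fold change of 0.35 (SE 0.37, edgeR adjusted p = 0.427) that was near 0 without mouse sample 1 (-0.03) and 0.64 without mouse sample 2. In the fits without a mouse sample, the lone mouse sample is assumed to vary like the bovine pair, which is the less spread group. Calls in those fits are therefore not given for either arm. The median log2 fold change was 0.35 over the 5 leukocyte miRNA and 0.21 over all 139, and the latter became 0.36 with library totals alone and 0.03 with the DESeq2 size factors. All 5 leukocyte miRNA kept their direction under both.

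Ratios between the miRNA of one library do not depend on how the library is scaled. With 2 samples against 2, the smallest p that an exact permutation test can give is 0.33, so that no ratio can pass 0.05. This value, two-sided, was obtained wherever the groups did not overlap, in 9 of the 10 comparisons made (5 ratios in AGO2 and in bovine, each against mouse). For the ratio of miR-223-3p to miR-142 in AGO2, where the groups overlapped, the exact permutation p was 0.667. Adjustment over the 10 comparisons can only raise these values.

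The arms of miR-142 were balanced differently. The 5p arm took 48.1% and 35.6% of the miR-142 reads in mouse, 61.5% and 65.5% in AGO2, and 71.1% and 67.9% in bovine. The log2 ratio of 5p to 3p was therefore negative in both mouse samples (-0.11 and -0.86), and positive in AGO2 (0.68 and 0.92) and in bovine (1.30 and 1.08). The means differed by 1.28 between AGO2 and mouse and by 1.67 between bovine and mouse on the log2 scale, where the mouse pair had an SD of 0.53. The bovine value includes the difference in the start of the 3p line, whose part in it was not tested.

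The ratio of the lymphocyte miR-150-5p to the myeloid miR-223-3p was close to 1 in mouse, with log2 ratios of 0.23 and -0.14. It was 0.88 and 0.74 in AGO2, and 3.70 and 4.49 in bovine. The bovine mean lay 4.05 log2 units above the mouse mean, against SDs of 0.56 in bovine and 0.26 in mouse. In counts, bovine had 12669 and 21304 reads of miR-150-5p beside 975 and 947 of miR-223-3p, while mouse had 2326 and 2184 beside 1989 and 2402.

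Relative to both arms of miR-142, miR-150-5p had log2 ratios of -1.62 and -2.56 in mouse, -0.76 and -1.42 in AGO2, and 0.56 and 1.07 in bovine. miR-155-5p had -4.65 and -5.05 in mouse, -6.37 and -7.80 in AGO2, and -2.30 and -2.02 in bovine. miR-223-3p had -1.84 and -2.42 in mouse, -1.64 and -2.16 in AGO2, and -3.14 and -3.42 in bovine. Among these, miR-155-5p was the miRNA whose ratio to miR-142 was lower in AGO2 than in mouse and higher in bovine. All bovine ratios to miR-142 include the 3p line with its later start, whose part in them was not tested.

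**Figure D4:**
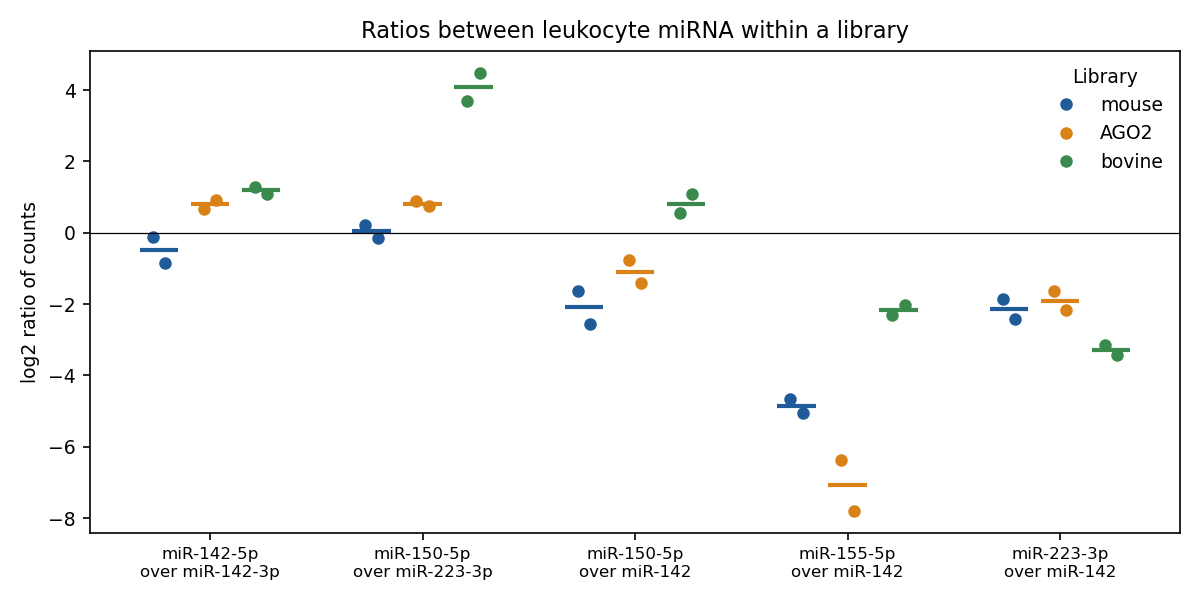
Log2 ratio of counts between leukocyte miRNA within each library, with 1 point per library, a bar at the mean of each kind of library and a line at equal counts. The bovine points of miR-150-5p over miR-223-3p (3.70 and 4.49) are far above those of mouse (0.23 and -0.14), and only miR-223-3p over miR-142 shows AGO2 and mouse points that overlap.

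The mouse samples differed from each other in a way that went with base composition. Over 171 miRNA, the log2 ratio of mouse sample 2 over sample 1 had a Spearman rank correlation of -0.51 with the GC content of the mature miRNA, given as a description over miRNA that share both libraries. The same correlation was -0.12 in AGO2 and -0.14 in bovine. mmu-miR-142-3p, with 34.8% GC, was 2.47-fold higher in mouse sample 2, the second highest ratio of the 171. mmu-miR-142-5p, with 33.3% GC, was 1.47-fold higher, mmu-miR-223-3p, with 40.9%, 1.34-fold, and mmu-miR-150-5p, with 54.5%, 1.04-fold.

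After a quadratic trend with GC content had been subtracted library by library, 0 of 5 leukocyte miRNA were called in AGO2 against mouse, as before, and 4 of 5 in bovine against mouse. Calls over all miRNA were also more frequent in this fit, with 16.7% higher and 13.7% lower in AGO2, and 32.4% higher and 30.9% lower in bovine. The added call was miR-142-3p (log2 fold change -1.39, edgeR adjusted p = 0.0274).

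**Figure D5:**
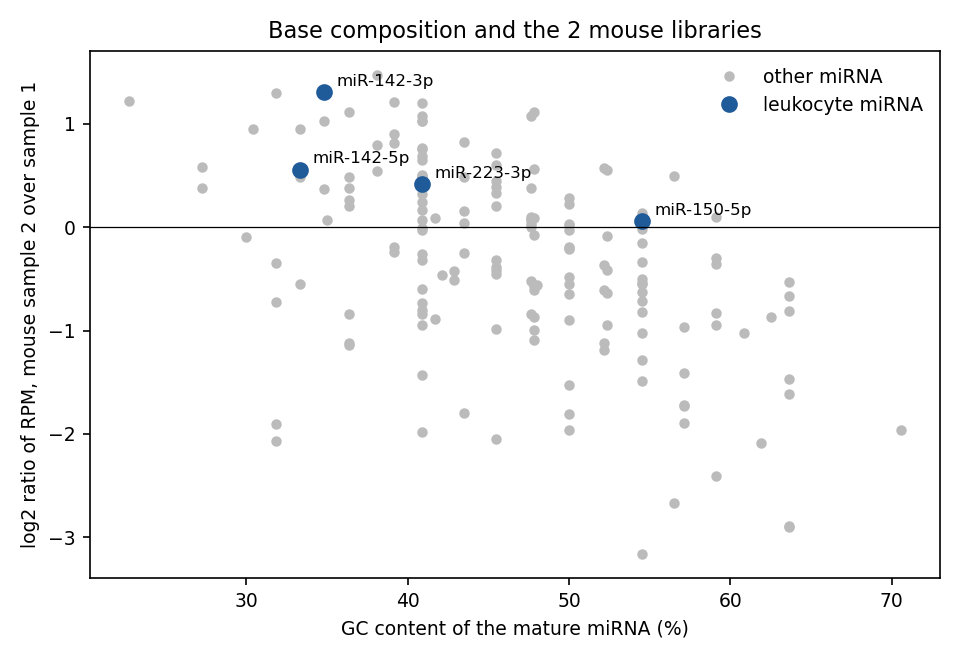
Log2 ratio of RPM in mouse sample 2 over mouse sample 1 against the GC content (%) of the mature miRNA, for the 171 miRNA at or above 100 RPM in either sample, leukocyte miRNA in blue. miR-155-5p stays below 100 RPM and is not drawn, and miR-142-3p is near the upper edge at 1.31.

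Other miRNA linked to leukocytes gave values of their own. Of 6 such miRNA, 3 passed the filter in AGO2 against mouse, of which edgeR and DESeq2 each called 0 and 0 had an unadjusted p below 0.05. Their log2 fold changes went both ways, with 1.03 for miR-342-3p, -0.97 (the median) for miR-146a-5p and -3.10 for miR-511-3p. miR-511-3p passed the filter only through mouse sample 2 (424 counts, against 117 in mouse sample 1 and 1 and 31 in AGO2). miR-342-3p, which is enriched in lymphocytes, had 253 and 117 RPM in mouse, 317 and 353 RPM in AGO2, and 617 and 684 RPM in bovine. In bovine against mouse, 2 of the 6 were tested and miR-342-3p was called higher (log2 fold change 1.69, SE 0.46, edgeR adjusted p = 0.0218). miR-146a-5p, a miRNA induced by NF-κB signalling in immune cells, had 787 and 1331 RPM in mouse, 609 and 382 RPM in AGO2, and 880 and 931 RPM in bovine. It was not called in bovine against mouse (log2 fold change -0.38, SE 0.40, edgeR adjusted p = 0.422). The summed level of these 6 miRNA was 1059 and 1507 RPM in mouse, 926 and 742 RPM in AGO2, and 1513 and 1639 RPM in bovine, where 3 of the 6 are listed. miR-342-5p and miR-147-3p were at 0 in AGO2 sample 1, and miR-511-5p was at 0 in both AGO2 samples and in mouse sample 1.

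Red blood cells are another blood source in a tissue sample. The 4 erythroid miRNA (miR-451a, both arms of miR-144, and miR-486-5p) summed to 13369 and 6522 RPM in mouse and 32505 and 15557 RPM in AGO2, and the 3 listed in bovine summed to 1709 and 1098 RPM. None was at 0 in any library that lists it. AGO2 was thus high and bovine low in this list, whereas the leukocyte sum was above mouse in both. In AGO2 against mouse 1 of the 4 was called higher by edgeR, miR-144-3p (log2 fold change 2.40, SE 0.54, adjusted p = 0.0021). In bovine against mouse 1 of the 2 tested was called lower, again miR-144-3p (-6.37, SE 0.40, edgeR adjusted p = 0.000465). It reached the 100 RPM of the filter only in mouse (1105 and 1035 RPM, against 14.3 and 14.3 RPM in bovine). Its call in bovine is therefore not free of the filter. Mouse sample 2 had the higher leukocyte sum and the lower erythroid sum of the mouse pair, as AGO2 sample 2 and bovine sample 2 had in theirs. The part of blood in the leukocyte values was not tested.

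The mammary epithelium was present in all libraries. Its 6 miRNA (the miR-200 family with miR-141 and miR-429, and miR-205-5p) summed to 159803 and 188746 RPM in mouse, 338037 and 368284 RPM in AGO2, and 77607 and 79458 RPM in bovine, and none was at 0. In AGO2 against mouse edgeR called 2 of them higher and 2 lower, and in bovine against mouse 1 higher and 3 lower. The endothelial miR-126 arms summed to 24194 and 34265 RPM in mouse, 29280 and 28819 RPM in AGO2, and 62356 and 55972 RPM in bovine, with 1 arm called higher and 1 lower by edgeR in AGO2 and neither tested in bovine. The 4 stromal and smooth muscle miRNA summed to 51990 and 66163 RPM in mouse, 33140 and 32082 RPM in AGO2, and 70212 and 55558 RPM in bovine. Of these, edgeR called 0 of 4 in AGO2 against mouse (2 with an unadjusted p below 0.05, and 1 by DESeq2) and 0 of 3 in bovine (0 and 0). The 3 skeletal muscle miRNA summed to 163 and 213 RPM in mouse, 27.9 and 70.2 RPM in AGO2, and 727 and 782 RPM in bovine. miR-206-3p was at 0 in mouse sample 2. Of the 2 tested in AGO2, edgeR called miR-1a-3p lower (log2 fold change -2.82, adjusted p = 0.0067), and none was tested in bovine. miR-1a-3p passed the filter only through its mouse counts (1482 and 1739), so its call is not free of the filter. It had 159 and 207 RPM in mouse, against 11.3 and 34.7 RPM in AGO2. miR-133a-3p went the other way without being called (log2 fold change 2.69). It passed only through AGO2 sample 2 (178 counts, against 31 and 47 in mouse). Since RPM are shares, a list that takes more of the counts leaves less for the others, and the part of these shifts in the leukocyte values was not tested.

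For each abundant line, the 3 miRNA nearest in profile were those with the smallest root mean square difference of centred log2(RPM + 1) over the 6 libraries, among 141 compared. They were miR-340-3p, miR-19b-3p and miR-450a-5p for miR-142-3p (differences of 0.36 to 0.40) and miR-27a-3p, miR-149-5p and miR-29b-3p for miR-142-5p (0.22 to 0.36). The arms of this hairpin shared none of the 3 nearest. The bovine values of miR-142-3p come from the line with the later start, whose part in this was not tested. For miR-150-5p the nearest were miR-99a-5p, miR-186-5p and the lymphocyte-enriched miR-342-3p (0.30 to 0.49). The nearest to miR-223-3p were miR-29a-3p, miR-30e-5p and miR-340-3p (0.19 to 0.37). miR-155-5p had the least close neighbours, miR-361-5p, miR-26b-5p and miR-151-5p (0.55 to 0.56). The nearest of all, miR-29a-3p, followed the profile of miR-223-3p at a higher level, with 26146 and 37113 RPM in mouse, 53497 and 76523 RPM in AGO2, and 15324 and 13741 RPM in bovine.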

How the data were processed

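Small RNA was sequenced in 2 mouse, 2 AGO2 and 2 bovine libraries. The authors trimmed poly-A stretches, selected reads between 17 and 28 nt in length and assigned them with the miRDeep2 quantifier to miRBase 20 precursors and to predicted ones. The deposited values used here are raw counts per mature miRNA. The deposited normalised column and lists of predictions were not used.

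RPM were computed over the total of each library. The tests used edgeR 4.0.16 under R 4.3.3 (TMM, quasi-likelihood F test, Benjamini-Hochberg adjustment, threshold 0.05), and the standard error was taken as the log2 fold change divided by the square root of F. Per the study, mouse glands were taken from 2 mice, and the AGO2 libraries came from 2 animals. Whether these were the same mice is not stated, and the main test treated the libraries as independent. The bovine libraries came from separate pools. Ratios were compared with a two-sided exact permutation test. The edgeR procedure was also run on simulated counts. These had no GC trend and the same spread in both groups, so that run does not bear on either limit.

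Mouse and bovine lines were matched by name and arm. Letter variants such as miR-126a and miR-126 stayed unmatched in the test. Sequences are those of the files. Of the 8 mouse lines, 7 matched the RefSeq table (GRCm38.p6), and gene positions are from GENCODE. Lists of other cell types were miRNA usually named for each. Named miRNA were every line of the 4 miRNA, the members of the lists and, for each abundant line, the 3 nearest profiles. The members and lists were chosen with earlier results of these data known.

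Alternatives were DESeq2 1.42.0, no filter, library totals without TMM, edgeR with DESeq2 size factors, pairs from the study's supplementary list, lines under other prefixes, RPM over known miRNA or TMM-adjusted sizes, and each library left out. Removal of a GC trend and the study's sample numbers as a replicate block were added after seeing the data. Levels, ratios and figures were made in Python 3.11.15 (SciPy 1.17.1, NumPy 2.4.6, pandas 2.3.3, matplotlib 3.10.9).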

Additional observations from a re-analysis of the deposited data

Results flagged for a closer look

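Reads of the less abundant arm of miR-223 were also found in bovine on a line outside the comparisons, because it carries a human prefix. hsa-miR-223-5p had 6 counts in bovine sample 1 and 3 counts in bovine sample 2, which is 0.638 RPM (95% exact interval 0.234 to 1.39) and 0.283 RPM (0.0583 to 0.826). In bovine sample 1 this was above the 3 counts that a count of 0 allows, and in bovine sample 2 it was at that limit. ssc-miR-155-3p, the other line of this kind, had 0 counts in both bovine samples.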

How the results depend on the processing

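The number of leukocyte miRNA called in AGO2 against mouse was 0, and became 2 with DESeq2 and 1 with the DESeq2 size factors in edgeR. Leaving out each library in turn gave 0 in all 4 fits. In bovine against mouse 3 were called, and leaving out each library gave from 1 to 5. It was 1 without bovine sample 2 and 5 without mouse sample 2, and calls over all miRNA moved likewise, from 55.4% to 35.3% and 75.7%.

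The log2 fold change of miR-142-3p in AGO2 ran from -0.71 to 0.63 over the libraries left out, turning positive without mouse sample 2 and without AGO2 sample 1 (0.40). That of miR-142-5p in bovine ran from -0.027 to 0.64, and was -0.14 with no filter. The log2 ratio of miR-223-3p to miR-142, 0.23 higher in AGO2 than in mouse, was -0.057 without mouse sample 2 and -0.029 without AGO2 sample 1, with a highest value of 0.52. The cause was not tested. The other 8 fold changes kept their direction in all fits. Summed shares over known miRNA alone moved by less than 1 SD; with 2 libraries, leaving one out cannot move a mean by more.

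Calls over all miRNA were 83 of 299 in AGO2, against 52 of 286 without mouse sample 1, and 77 of 139 in bovine, against 124 of 229 with no filter and 48 and 49 of 139 without bovine samples 1 and 2. Without mouse samples 1 and 2 they were 108 and 103 of 136.

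The labels give no replicate numbers. With the study's sample numbers as a replicate block, 2 leukocyte miRNA were called in AGO2 (miR-142-5p and miR-150-5p, both higher, with 121 of 299 called in all). In bovine 3 were called (73 of 139), but mice and pools of cows share no animal, so that the block marks no pairing there. Nothing says that equal numbers mark one mouse, and the log2 differences of sample 2 from sample 1 had a Pearson correlation of 0.282 between mouse and AGO2 over 299 miRNA and -0.048 between mouse and bovine over 139. The AGO2 depth limits miR-155-5p (42 and 58 counts) and the less abundant arms. Species and sample handling cannot be told apart.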
